A study of Mus musculus with 8 samples.

Results

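The cytosolic ribosomal proteins are the protein components of the cytoplasmic ribosome. Their genes were chosen by symbol: every protein-coding mouse gene in the count tables named Rpl or Rps with a number, Rplp0 to Rplp2, Rpsa or Fau, leaving out the Rps6k kinases and the genes with a -ps suffix. This gave 87 of 27453 listed genes, with 193 of 53983 listed transcripts. The set held 78 core genes, 46 of the large and 32 of the small subunit. It also held 8 paralogues or retrocopies, and Rps19bp1, which was matched by its symbol but encodes a binding partner of a ribosomal protein. Nanopore direct RNA reads were counted in liver of the inbred mouse strain C57BL/6JN, in 8 libraries, 4 with titles that begin with O and 4 with titles that begin with Y. In each title group replicates 1 and 2 were recorded as male and replicates 3 and 4 as female. The age recorded was 12 weeks in the O-titled group and 80 weeks in the Y-titled group. The series text contrasts young and old animals without spelling out O and Y, and the same treatment text, which names the old ones as treated, stands on all 8 libraries. The groups are therefore named by title only, and no direction below is read as a direction of age. No agent or modified allele was recorded for any library. The labels do not say that each library came from a separate animal, so the p-values measure the spread between these libraries.

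Mapped reads ranged from 545171 to 2593200 per library. Hepatocyte markers (Alb, Apoa1, Ttr, Cps1, Tat and Hnf4a) summed to 65363 to 109170 CPM (read counts scaled to a common library size), which fits the labelled tissue. Library sizes were scaled with trimmed means of M values (TMM). This method averages the log ratios of genes between libraries after setting aside extreme ratios and extreme abundances. Markers of other liver cells were present as well. The 9 Kupffer cell markers summed to 468 to 1180 in O-titled and 590 to 710.0 in Y-titled libraries, the 7 stellate markers to 318 to 369 and 212 to 329, and the 5 erythroid markers to 2147 to 2774 and 1701 to 4659. Every library is a bulk sample, in which fewer cells of a type and less RNA per cell cannot be told apart.

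A ribosome carries most of its proteins in single copy, so the cell needs them in matched amounts. Excess ribosomal proteins are degraded. Their mRNAs begin with a C followed by a run of pyrimidines, the 5′ terminal oligopyrimidine (TOP) motif, through which mTOR signalling and LARP1 control their translation together. Liver, which makes large amounts of plasma protein, keeps many ribosomes. Direct RNA sequencing passes each native polyadenylated molecule through a pore, so that 1 read stands for 1 molecule and a count does not grow with transcript length.

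RefSeq promoter sequences (GRCm38.p6) were at hand for 67 of the 87 genes. The windows of 30 bases below are centred on the annotated start, and are shown for the 6 of the 10 most abundant members that have an entry and for the pairs compared further on. Capitals mark a run of C or T that opens with a C within 5 bases of the start.
Rps2, chr17:24720048-24720077, plus strand: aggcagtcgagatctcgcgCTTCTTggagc
Rpl41, chr10:128549154-128549183, minus strand: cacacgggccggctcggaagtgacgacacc
Rpl13a, chr7:45128731-45128760, minus strand: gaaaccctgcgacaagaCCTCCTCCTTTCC
Rpl39, chrX:37085208-37085237, minus strand: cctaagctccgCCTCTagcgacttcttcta
Rpl23, chr11:97782425-97782454, minus strand: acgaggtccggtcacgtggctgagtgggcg
Rps18, chr17:33955651-33955680, minus strand: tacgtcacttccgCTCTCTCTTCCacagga
Rplp0, chr5:115559452-115559481, plus strand: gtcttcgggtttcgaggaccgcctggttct
Rplp2, chr7:141447636-141447665, plus strand: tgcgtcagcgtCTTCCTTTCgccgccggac
Rpl22, chr4:152325711-152325740, plus strand: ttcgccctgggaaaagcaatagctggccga
Rpl22l1, chr3:28805493-28805522, plus strand: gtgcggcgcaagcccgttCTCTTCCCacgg
Rps27, chr3:90213634-90213663, minus strand: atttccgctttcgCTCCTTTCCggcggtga
Rps27rt, chr9:114982725-114982754, minus strand: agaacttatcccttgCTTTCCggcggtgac

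A C followed by at least 4 of C or T within 5 bases of the start was found in 28 of the 58 core genes with an entry (48.3%), against 5718 of 27025 genes in the whole table (21.2%). The annotated start of RefSeq can lie some bases from the cap, so a window without the run says only that these letters are not there. Within the 300 bases from 250 before to 50 after the start, read on both strands, the letters CCGGAAG, the core of an ETS family site, were in 24 of 58 core genes (41.4%) and in 9.93% of all genes. The YY1 letters AAGATGG were in 17.2% and 7.28%, the Sp family letters GGGCGG in 62.1% and 38.2%, and the TATA box letters TATAAA in 10.3% and 15.7%. Read on the opposite strand, CCGGAAG holds a pyrimidine run, so it can overlap the start motif. These shares describe the sequences and are not tied to any level measured below.

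The ribosomal protein genes together took 4.19% ± 0.324 of mapped reads (SD, n = 8 libraries; Rps19bp1 not counted). In the O-titled libraries the share was 4.45% in replicate 1, 3.70% in replicate 2, 4.63% in replicate 3 and 4.23% in replicate 4. In the Y-titled libraries it was 3.93%, 4.01%, 4.52% and 4.07% in the same order. The O-titled replicates 2 and 3 held the lowest and the highest share of all 8, so the Y-titled values lay wholly inside the O-titled range. The group means, 4.25% ± 0.405 and 4.13% ± 0.265 (SD, n = 4 each), differed by 0.122 percentage points, less than the spread within either group. Females averaged 4.36% ± 0.26 and males 4.02% ± 0.316 (SD, n = 4 each), and these ranges also overlapped. The 95% Wilson interval of the shallowest library (Y-titled replicate 2) ran from 3.96% to 4.07%, so counting error was small beside the differences between libraries; intervals cover counting error only. Albumin alone took 3.98% to 7.83% of mapped reads and the mitochondrially encoded genes 6.82% to 11.1%. Divided by TMM-scaled library sizes, the ribosomal share was 4.21% ± 0.25 in O-titled and 4.35% ± 0.19 in Y-titled libraries, and the sign of the difference turned.

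**Figure D1:**
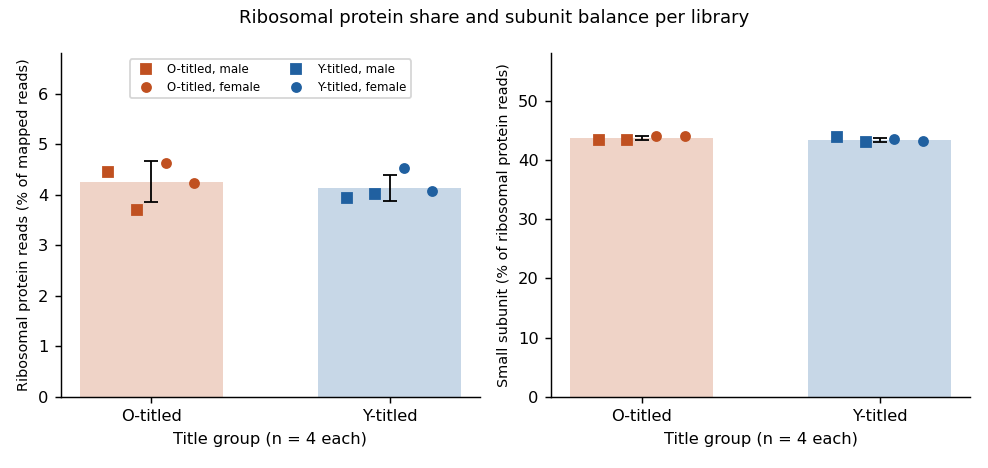
Reads on ribosomal protein genes as a percentage of mapped reads (left) and reads on small subunit genes as a percentage of ribosomal protein reads (right). Bars are means and error bars SD of the 4 libraries of a title group, and points are single libraries. The O-titled libraries span 3.70% to 4.63% and enclose the Y-titled ones, while the small subunit share stays between 43.1% and 44.0% in all 8.

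Large and small subunit mRNAs kept nearly the same proportion in every library. Small subunit genes took 43.4%, 43.4%, 44.0% and 44.0% of ribosomal protein reads in O-titled replicates 1 to 4, and 43.8%, 43.1%, 43.5% and 43.2% in Y-titled replicates 1 to 4. The O-titled females held the highest values, and the title groups overlapped. The means were 43.7% ± 0.375 and 43.4% ± 0.344 (SD, n = 4 each). Per gene, the small subunit was not the lower one: the median core small subunit gene had 530 CPM and the median large subunit gene 504. On the scale of log2 geometric means, small over large ranged from 0.10 to 0.16 over the 8 libraries.

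The 78 core genes lay close together. Their mean level over 8 libraries had a median of 523 CPM, with the middle 50% of genes between 444 and 584. From the lowest (Rpl9, 289) to the highest (Rplp1, 1205) was 4.17-fold. Of the 78, 67 lay within 1.5-fold and 77 within 2-fold of the median. The 4 genes more than 1.5-fold above it were Rplp1, Rps2, Rps29 and Rpl41, and the 7 below by as much were Rpl18, Rpl36a, Rpl27, Rpl14, Rpl22, Rps27 and Rpl9. Because a short transcript and a long one each give 1 read, these counts compare sequenced molecules. Whether short and long RNAs were recovered equally was not tested. Rpl9 and Rps27 have near-identical copies, given below, whose reads are counted apart from theirs. Per kilobase of the leading annotated transcript the core genes spread over 33.1-fold, from Rps15a (72.9 CPM per kb) to Rplp1 (2415). On that scale only 39 stayed within 1.5-fold of the median of 601. Both values rest on annotated lengths that reads on some genes did not cover. Reads on Rps15a averaged 521 of its 5179 annotated bases.

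Rplp1, which encodes an acidic protein of the stalk that recruits elongation factors, was the most abundant member on both scales. Its levels were 1165, 1091, 1201 and 984 CPM in O-titled replicates 1 to 4, and 1263, 1336, 1387 and 1215 CPM in Y-titled replicates 1 to 4. Every O-titled library was below every Y-titled one. The stalk is built from Rplp0, its base, and from Rplp1 and Rplp2, which are present on the ribosome in more than 1 copy. Rplp0 had a mean of 593 ± 27.9 in the O-titled and 600.4 CPM ± 27.6 in the Y-titled libraries (SD, n = 4 each), and Rplp2 379 CPM ± 45.3 and 387 CPM ± 45.3. Rplp1 reads were thus 1.87 ± 0.0948 times the Rplp0 reads in O-titled and 2.17 ± 0.0959 times in Y-titled libraries (SD, n = 4 each), without overlap. This ratio was looked at after the level of Rplp1 was known and is a description. A further 1339 reads, against 4006 on Rplp2, were listed for Wdr89, a transcript of which holds a copy of the Rplp2 coding sequence at 99.4% identity.

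Rps2 encodes a protein near the mRNA entry channel of the small subunit. It had 967, 899, 1004 and 972 in the O-titled and 985, 1031, 986 and 1005 CPM in the Y-titled replicates 1 to 4, a spread of 3.99% of the mean over all 8. Rps29, a small zinc-binding protein, ranged from 769 to 965 in the O-titled and from 782 to 921 CPM in the Y-titled libraries. Rpl41, which encodes the shortest of the ribosomal proteins, ranged from 760.4 to 948 CPM and from 799 to 861 CPM. Rps29 was second on the scale per kilobase too (2177 CPM per kb) and Rpl41 at rank 4 (1446 CPM per kb), while Rps2 fell to rank 19 (983 CPM per kb). Rpl13a, Rps14, Rpl39, Rpl23 and Rps18 completed the 10 most abundant, with means from 659 to 745 CPM, and the 10 together made up 18.9% of ribosomal protein reads. Among these 10, the steps from Rplp1 to Rps2, from Rps2 to Rps29 and from Rpl41 to Rps27a were larger than the SD of either gene over the 8 libraries, and the other steps were smaller.

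Both members that encode a ribosomal protein fused to ubiquitin or a ubiquitin-like protein were among the well expressed. Rps27a, the fifth most abundant, had 785, 747, 721 and 703 in the O-titled and 799, 782, 862 and 724 CPM in the Y-titled replicates 1 to 4. Fau had 593, 512, 594 and 633 CPM and 558, 499, 590 and 546 CPM in the same order. For both genes the title groups overlapped. Rpsa, which encodes the small subunit protein also known as the laminin receptor, ranged from 515 to 707 in the O-titled and from 609 to 681 CPM in the Y-titled libraries.

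The paralogues were expressed very unequally. No read was listed for Rpl3l or Rpl10l in any library, and Rpl39l had 2 reads in all; a count of 0 allows up to 1.16 CPM, here of all mapped reads, in the deepest and 5.50 in the shallowest library. Rpl3l is known from muscle and Rpl10l and Rpl39l from the male germ line. Rpl7l1, a factor of ribosome assembly, had a mean of 51.8 CPM, and its reads were 0.075 to 0.117 times those of Rpl7. Rpl36al ran nearly level with its parent: the ratio to Rpl36a was 0.922 ± 0.0877 in O-titled and 0.966 ± 0.148 in Y-titled libraries (SD, n = 4 each). Rps27l, a p53-inducible relative of Rps27, had 1.33 to 2.38 times the reads listed for Rps27 and a mean of 511 CPM. Rps19bp1, at 12.6 to 23.9 CPM, was the lowest member with reads in every library.

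Rpl22l1, which can take the place of Rpl22 on the ribosome, had 148, 148, 181 and 100.1 CPM in O-titled replicates 1 to 4 and 184, 174, 226 and 179 CPM in Y-titled replicates 1 to 4. O-titled replicate 4 was the lowest, and O-titled replicate 3 lay among the Y-titled libraries. Rpl22 itself had 312 CPM ± 23.9 and 306 CPM ± 18.8 (SD, n = 4 each). The ratio of Rpl22l1 to Rpl22 reads was therefore 0.449, 0.526, 0.589 and 0.302 in O-titled and 0.645, 0.557, 0.687 and 0.604 in Y-titled replicates 1 to 4. The ranges of the ratio overlapped.

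**Figure D2:**
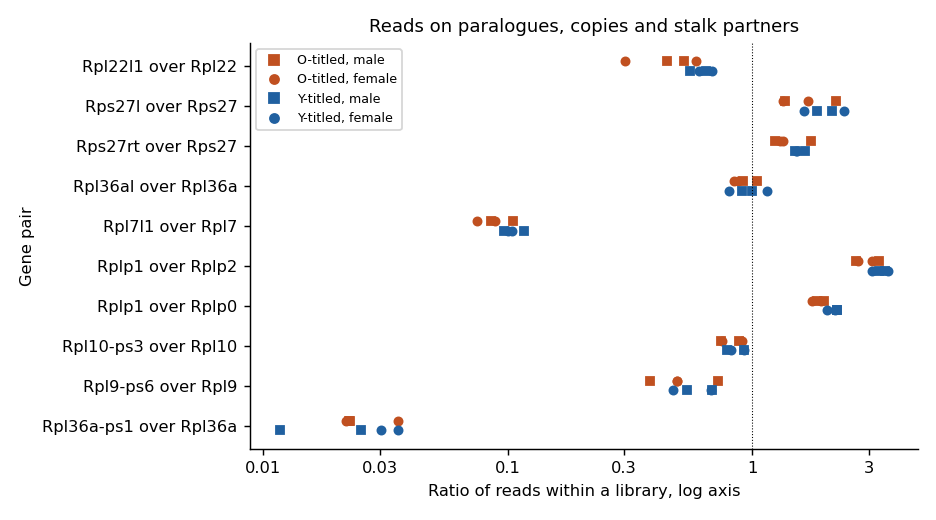
Ratio of reads within a library (log axis) for paralogues, pseudogene copies and stalk proteins over their partners; each point is a library. Rplp1 over Rplp0 is below 2 in the O-titled and above 2 in the Y-titled libraries, and Rps27rt over Rps27 is above 1 in all 8.

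For some members the level depends on how reads were shared among near-identical copies. Aligned with blastn at 90% identity or more over 80% or more of the coding sequence, 15 members had such a copy among the listed genes. Outside the member set these were 16 copies, 14 with reads, which together held 9913 reads or 2.25% of the members' own total. Rpl10-ps3 matched the whole coding sequence of Rpl10 without a mismatch and held 4812 reads against 5803 on Rpl10. Adding both would raise Rpl10 from 1.06 times to 1.96 times the core median. Rpl9-ps6 matched Rpl9 at 99.8% and held 33.7% of the reads of the pair, and with it Rpl9, the lowest core gene, came to 447 CPM or 0.855 times the core median. BC004004 held 16.7% of the reads shared with Rpl21 (98.6% identity), and Gm45713 held 9.38% of those shared with Rpl13a (no mismatch over 97.7% of its length).

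The clearest case is Rps27 and Rps27rt, its intronless copy (chr9:114982366-114982739, minus strand, a single exon). The 255 coding bases of the Rps27-201 transcript are the same, base for base, as those of Rps27rt. The leading listed transcript, Rps27-202, has a coding sequence of 159 bases that lies inside them from base 97 on, which the capitals mark. The whole sequence is shown because both genes carry it.
Rps27rt: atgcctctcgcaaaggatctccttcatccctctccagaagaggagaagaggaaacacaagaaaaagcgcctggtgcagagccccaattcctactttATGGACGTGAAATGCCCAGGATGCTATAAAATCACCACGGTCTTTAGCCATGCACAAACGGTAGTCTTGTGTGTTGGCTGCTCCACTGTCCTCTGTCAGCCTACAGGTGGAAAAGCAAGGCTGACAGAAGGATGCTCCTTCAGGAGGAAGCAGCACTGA

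Rps27rt had more listed reads than Rps27 in all 8 libraries, from 1.24 to 1.75 times as many. Rps27 itself had 358, 230, 307 and 341 in the O-titled and 292, 255, 298 and 234 CPM in the Y-titled replicates 1 to 4, the largest spread on the log2 scale among the core genes (SD 0.24). Rps27rt had 426 CPM ± 21.8 and 417 CPM ± 40.6 (SD, n = 4 each), a closer range. Both summed to 711 CPM ± 72.9 (SD, n = 8), or 1.36 times the core median, so that Rps27 moved from the second lowest of the core genes to the upper part. The levels of Rps27 and Rps27rt taken singly are therefore uncertain. Rps27l differs from Rps27rt at 61 of the 255 bases of its Rps27l-201 transcript, so its reads are not part of this uncertainty.

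The level of each core gene varied little between libraries. The SD of log2 CPM over all 8 had a median of 0.11 for the core genes, from 0.06 for Rps15 to 0.24 for Rps27. The 323 other genes with mean levels in the range of the core genes had a median SD of 0.23. Of them, 11.5% were at or below the core median and 53.9% at or below the core highest. Set against Poisson counting of TMM-scaled libraries, the variance ratio (chi-square over degrees of freedom, 1 for counting noise alone) had a median of 3.41 for the core genes and 14.1 for those other genes. Set against the library's own ribosomal protein total, the core median fell to 2.04, and 19 of 78 genes were below 1.5. That total is the sum of the members themselves, so a shift they share within a library drops out by construction. The other genes were not scaled by their own total, so 2.04 has no counterpart among them. Rplp1 (9.14) and Rps27 (8.42) were the furthest from counting noise when set against the ribosomal protein total. These values describe 8 libraries, and no test was run over the list. The profile of ribosomal protein levels correlated between libraries with Pearson's r from 0.904 to 0.965 across genes, which are not independent replicates; the median was 0.943 within title groups and 0.945 between them.

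Testing O-titled against Y-titled libraries asked whether the mRNA of each ribosomal protein gene differed between the title groups, with sex as a covariate. The edgeR quasi-likelihood test over 6759 genes called 271 of them at an adjusted p of 0.05, or 4.01%. Of the 87 members, 84 passed the filter on low counts and none was called. At p under 0.05 before adjustment there were 2 of 84 members (2.38%), against 1098 of all tested genes (16.2%), and by DESeq2 or limma voom no member was called. The median log2 fold of the members was -0.05, beside -0.00 for all tested genes, and 22 of 78 core genes were above 0. With libraries scaled by their read totals alone, the members' median was 0.04 and that of all genes 0.10, so the sign of this small median rests on the scaling. The core log2 folds ran from -0.23 (Rplp1) to 0.20 (Rps27), with standard errors of 0.10 to 0.14. All 78 core genes had a 95% interval between -0.46 and 0.49, so a change of 1.5-fold in any of them lies outside its interval. The large subunit genes and the small subunit genes each had a median of -0.05.

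The largest negative values belonged to Rpl22l1, Rpl7l1 and Rplp1. For Rpl22l1 the log2 fold was -0.41 ± 0.16 (SE), with an adjusted p of 0.192 by edgeR. In 13 of the alternative fits it was negative each time, between -0.56 and -0.22. These fits share most of their libraries, so their signs are not independent. When all genes with a read were kept (15751 genes), the adjusted p of Rpl22l1 by edgeR was 0.0347, the single call of a member in any fit run. Rpl7l1 was at -0.24 ± 0.15 (SE, adjusted p = 0.473 by edgeR). Rplp1 was at -0.23 ± 0.11 (SE, adjusted p = 0.304 by edgeR), with all 4 O-titled libraries below all 4 Y-titled ones. The largest positive values were those of Rps27 (0.20 ± 0.14), Rpl3 (0.17 ± 0.11) and Rpl8 (0.10 ± 0.10; SE), with adjusted p of 0.526, 0.488 and 0.699 by edgeR. Levels of O-titled and Y-titled libraries did not overlap for 2 of the 84 tested members, Rplp1 and Rpl35a, against 8.71% of all tested genes; Rpl35a, a large subunit gene, had 533 to 609 in the O-titled and 614 to 639 CPM in the Y-titled libraries, and was named after its values were seen.

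**Figure D3:**
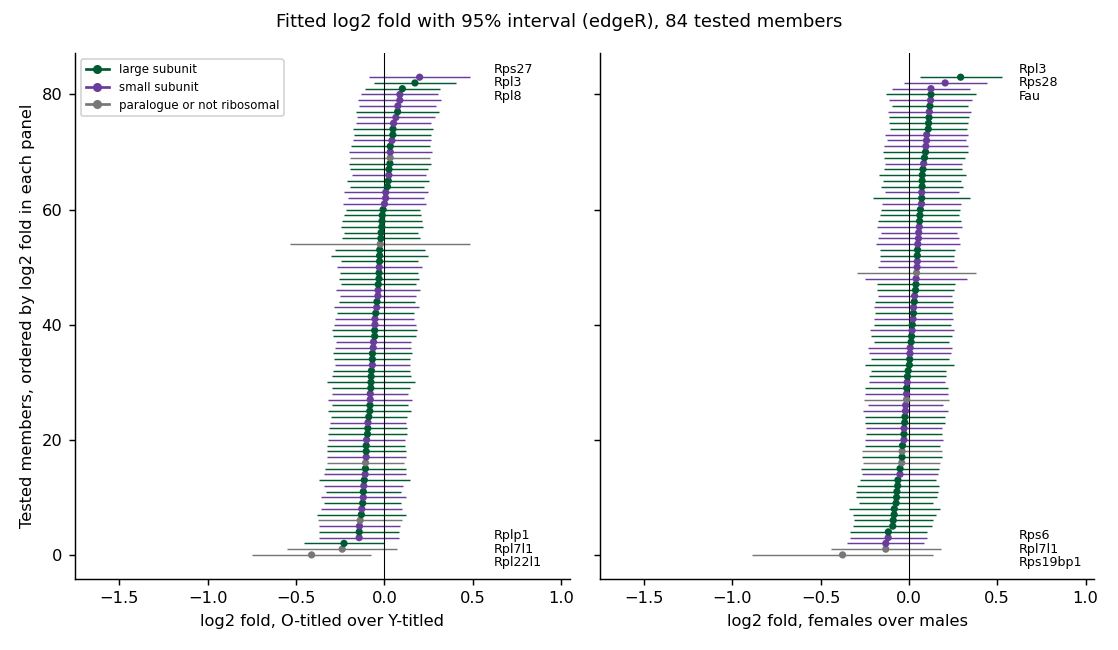
Fitted log2 fold with its 95% interval for the 84 tested members, O-titled over Y-titled on the left and females over males on the right, each panel in its own order. The 3 lowest and 3 highest members are named. The core genes run from -0.23 to 0.20 on the left and from -0.13 to 0.29 on the right, and most intervals cross 0.

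Females against males asked the same with title group as the covariate. Here edgeR called 200 of 6759 genes (2.96%) and none of the 84 members, with 1 (1.19%) below 0.05 before adjustment against 834 of all tested genes (12.3%). DESeq2 and limma voom called no member here. Rpl3, which encodes a protein at the peptidyl transferase centre, had the largest positive value. Its levels were 459, 382, 397 and 364 CPM in the females (O-titled replicates 3 and 4, then Y-titled 3 and 4) and 383, 314, 302 and 307 CPM in the males (O-titled 1 and 2, then Y-titled 1 and 2). One male lay among the females, and the log2 fold was 0.29 ± 0.11 (SE) with an adjusted p of 0.236 by edgeR. Rps28 followed with 0.20 ± 0.11 and Fau with 0.12 ± 0.10 (SE; adjusted p = 0.510 and 0.739 by edgeR). The lowest values were those of Rps19bp1 (-0.38 ± 0.24), Rpl7l1 (-0.13 ± 0.15) and Rps6 (-0.13 ± 0.10; SE), with adjusted p of 0.628, 0.836 and 0.721 by edgeR. The members' median was 0.02, beside -0.00 for all genes, and 0.12 beside 0.09 with libraries scaled by read totals alone. No member had females and males wholly apart, against 6.52% of all tested genes.

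A test of the difference between the sexes in the O against Y change called 26 of 6759 genes (0.385%) and no member, and no member was below 0.05 before adjustment, against 572 of all tested genes (8.46%). The count of members was 0 by DESeq2 and by limma voom too. The intervals of this difference were wider, and 22 of the 78 core genes had one within 0.5 on the log2 scale. Rpl22l1 was at -0.54 in females and -0.28 in males, a difference of -0.26 ± 0.32 (SE, adjusted p = 0.906 by edgeR).

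Genes of related pathways, taken from lists beside the members, gave a similar count in the O against Y test. Of the 32 other genes with known TOP mRNAs, 30 were tested and none was called, with a median log2 fold of -0.08. The most abundant were Eef1a1, elongation factor 1A (3935 ± 181 in the O-titled and 3859 CPM ± 182 in the Y-titled), and Tpt1, translationally controlled tumour protein (1788 CPM ± 144 and 1928 CPM ± 144; SD, n = 4 each). None of 33 tested ribosome biogenesis factors, 20 mTOR pathway and TOP regulator genes or 77 mitochondrial ribosomal proteins was called, with medians of -0.06, -0.10 and -0.09. In females against males, 1 TOP gene was higher and 1 regulator lower. The first was Eif2s3x, an initiation factor subunit from the X chromosome (log2 fold 0.56 ± 0.14, adjusted p = 0.0325 by edgeR). The other was Pdcd4, an inhibitor of the eIF4A helicase (-0.66 ± 0.17, adjusted p = 0.0395 by edgeR). Among the cell type markers, Kupffer cell genes had a median log2 fold of 0.47 and stellate genes of 0.58 in O against Y, with 0 of 9 and 1 of 5 called by edgeR. Sinusoidal endothelial genes had a median of 0.15 with 1 of 6 called, and hepatocyte genes of -0.23 with 0 of 6 called. Before adjustment 3 of 9 Kupffer cell, 4 of 5 stellate, 1 of 6 sinusoidal endothelial and 3 of 6 hepatocyte genes were below 0.05. Among the 5 erythroid genes it was 0, and among all tested genes 16.2%. The 5 erythroid genes had a median of -0.16 with none called in O against Y, and of -0.55 in females against males, where all 5 were negative and 1, Alas2, was called (adjusted p = 1.28e-07 by edgeR). The part of these markers in the ribosomal protein values was not tested.

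Most members had 1 dominant transcript. Of the 87 members, 36 had a single listed transcript and 51 had 2 or more, up to 7 for 1 gene. Among the 83 with at least 20 reads in every library, the leading transcript took a median of 97.5% of reads, and over 99% in 37 genes. In 2 genes, Rpl22 and Rpl18, it took less than 50%. The members with a large share off the leading transcript included Rpl22 (63.5%), Rpl18 (52.6%), Rpl17 (49.6%) and Rps2 (44.9%).

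In Rpl22, Rpl18 and Rpl17 the 2 leading transcripts have the same coding length and differ at the ends. Rpl22-204 and Rpl22-208 took 36.5% and 34.0% of Rpl22 reads and differ by 2 bases at the 5′ end and 1 at the 3′ end. The third, Rpl22-201, took 29.5% and lacks 1591 bases of the 3′ end. All Rpl22 transcripts have a coding length of 387. Rpl18-201 and Rpl18-207 took 47.4% and 46.3%, and Rpl18-207 has 2309 further bases at its 5′ end. The rarer Rpl18-202 (4.07%), Rpl18-204 (1.12%) and Rpl18-208 (1.09%) have coding lengths of 411, 468 and 480, against 567 for Rpl18-201. Rpl17-202 has 552 more bases at the 5′ end than Rpl17-201, and each took about the same share of reads (50.4% and 49.6%). In Rps2, Rps2-206 took 31.1% with a coding length of 909, against 882 for Rps2-208 (55.1%) and Rps2-201 (13.9%).

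Read lengths bear on these assignments. Reads on Rpl18-207, annotated at 2989 bases, averaged 688 bases, and those on Rpl18-201, annotated at 679 bases, averaged 690.1. On Rpl17-202 (1326 bases) and Rpl17-201 (775 bases) they averaged 665 and 670.3. Reads on the long Rpl22-204 averaged 691 of 2051 bases, and those on the short Rpl22-201 averaged 523 against 474. Over the 83 members the mean read had a median of 0.881 times the annotated length of the leading transcript, from 0.101 times for Rps15a (521 of 5179 bases) upward. Rps20 (561 of 3706 bases) and Rpl21 (619 of 1856) were also far below 1. The values per kilobase for these genes are therefore divided by a length the reads did not cover.

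**Figure D4:**
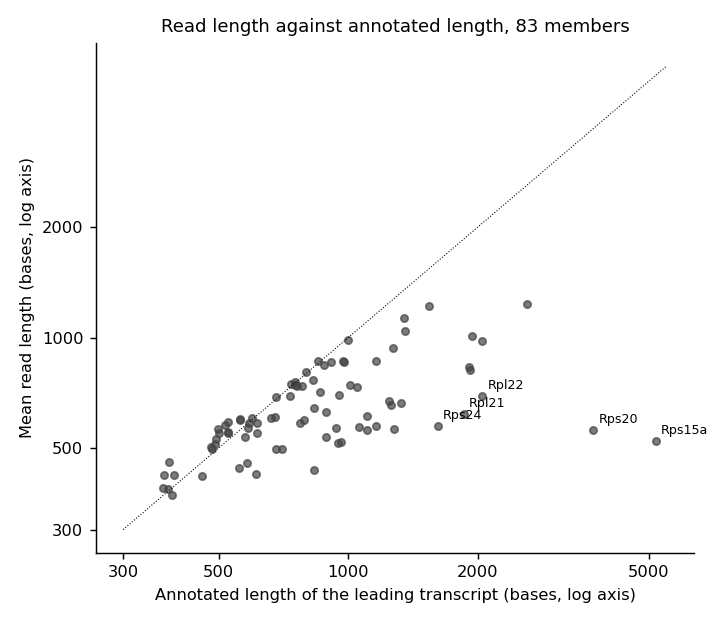
Mean read length against annotated length of the leading transcript (both log axes) for 83 members; each point is a gene and the dotted line marks equal lengths. Genes annotated above about 1000 bases fall below the line, furthest Rps15a (521 of 5179) and Rps20 (561 of 3706), and the genes read at less than 0.4 times their annotated length are named.

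No member was called for transcript usage between the title groups. Of 1236 genes with at least 2 tested transcripts, 43 of them members, edgeR's diffSpliceDGE called none (0.00%) in O against Y and none (0.00%) in females against males, with 1 and 2 members below 0.05 before adjustment against 8 and 10 of all 1236 genes. A test of each transcript against the rest of its gene within the library, added because the first gave p-values skewed towards 1, called 4 genes (0.324%) and 5 genes (0.405%), none of them a member. Before adjustment 2 and 6 of the 43 members were below 0.05, against 72 (5.83%) and 80 (6.47%) of all 1236 genes. In females against males the members' share was thus above that of all genes, and this difference in share was not tested. The transcripts named next were chosen after their values were seen. Rps9-202 took 3.05% ± 0.583 of Rps9 reads in O-titled and 1.89% ± 0.264 in Y-titled libraries (SD, n = 4 each), and these ranges did not overlap (gene-level adjusted p = 0.687 by edgeR). Rpl35a-202 took 4.01% ± 0.918 and 5.62% ± 1.33 of Rpl35a reads in the same order (SD, n = 4 each), with overlapping ranges (gene-level adjusted p = 0.687 by edgeR). In females and males it took 3.89% ± 0.793 and 5.73% ± 1.21 (SD, n = 4 each), with no overlap (adjusted p = 0.405 by edgeR). Rps12-208 took 0.747% ± 0.302 of Rps12 reads in females and 1.57% ± 0.687 in males (SD, n = 4 each), and these ranges overlapped (adjusted p = 0.246 by edgeR). Per library the whole genes had 253 to 1241 reads (Rps9), 316 to 1584 (Rpl35a) and 302 to 1811 (Rps12). In the shallow libraries these small shares therefore rest on few reads. Among the genes with mixed transcripts, Rpl22-204 took 35.8% ± 0.736 and 37.1% ± 3.32, Rpl18-201 47.7% ± 0.975 and 47.1% ± 3.57, and Rps2-208 55.1% ± 1.93 and 55.1% ± 2.08 in O-titled and Y-titled libraries (SD, n = 4 each). The Rpl22 and Rpl18 shares rest on the uncertain assignment described above.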

How the data were processed

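The authors deposited, per the file headers, the count of reads per transcript and the mean and median length of those reads (a score in bases) for each library. Minimap2 2.24, DESeq2 and the mm10 build are named in the submitters' processing notes; how reads were assigned to transcripts is not given in the sources used here. Polyadenylated RNA was selected before direct RNA sequencing, per the labels' protocols. Transcript counts were summed per gene through GENCODE M21. Genes passing filterByExpr (minimum count 10) were tested with edgeR 4.0.16 (robust quasi-likelihood, TMM, sex as covariate, Benjamini-Hochberg adjustment over all genes at 0.05), with DESeq2 1.42.0 and limma 3.58.1 as alternatives. The test recovered planted changes in data simulated with the spread that the same fit had estimated. Changes as small as those of the core genes were not planted. Shares, ratios and spreads are descriptions without a test. Copies were sought with blastn 2.17.0. Named genes are the 10 highest and 5 lowest, the 3 largest changes each way, called genes, paralogues with parents, and the 5 with most reads off the leading transcript. One gene that this rule names is not reported here. The members and lists were chosen with earlier results of these data known. Sequences are from RefSeq (GRCm38.p6) and GENCODE M21; genes on chromosome 18 and those without an entry are named only. Same-numbered libraries, which are also of the same sex, correlated (r = 0.22 to 0.41 over genes) after group means were removed. After sex means were removed too, r was -0.44 to -0.05. Removing these means itself makes such deviations correlate negatively, so these values cannot show whether the libraries were paired.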

Additional observations from a re-analysis of the deposited data

Results flagged for a closer look

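With 4 libraries per title group, a value was examined more closely where its gap to the next library filled nearly all of the group's range (Dixon's test at 95%), which chance gives in about 1 of 20 groups; 2 of 64 groups of values did so. Rpl36a had 423 CPM in Y-titled replicate 3, while the other Y-titled libraries had 325 to 337 CPM. Rps19bp1 had 23.9 CPM in Y-titled replicate 1, against 12.6 to 13.9 CPM in the others.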

How the results depend on the processing

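The count of called ribosomal protein genes was 0 in every comparison and alternative fit except O against Y without a filter on low counts, where it was 1 (Rpl22l1). The count of all called genes moved more. In O against Y it was 600 without a filter, 134 without the sex covariate, 138 with libraries thinned to the shallowest and 154 to 294 leaving out 1 library (176 without Y-titled replicate 3, 154 without Y-titled replicate 4). In females against males it was 401 without a filter, 110 when thinned and 125 to 217 leaving out 1 library (125 without O-titled replicate 2, 127 without Y-titled replicate 1). With a replicate block in place of sex, 184 genes and 0 members were called in O against Y, and 0 members in transcript usage. The difference in ribosomal share, O minus Y, was 0.121 percentage points with pseudogene reads added, 0.06 outside mitochondrial genes, 0.0385 outside the 10 most abundant genes, -0.143 with TMM library sizes (chosen after seeing the data), and -0.00447 to 0.307 leaving out 1 library. The small subunit difference stayed between 0.184 and 0.441 points when 1 library was left out. For the 30 named members, 32 of 390 alternative values in O against Y and 35 of 390 in females against males had the other sign, beyond 1 SE only for Rps19bp1 without Y-titled replicate 1 (0.30 on the log2 scale, and -0.11 to 0.30 over the 8 omissions). The cause of these shifts was not tested. Depth limits Rps19bp1, with 7 to 41 reads per library, and leaves Rpl3l, Rpl10l and Rpl39l untested.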
